A study of Mus musculus with 84 samples.

Results

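The S100A genes encode small calcium-binding proteins. The 9 examined here, S100a1, S100a3, S100a4, S100a6, S100a10, S100a11, S100a13, S100a14 and S100a16, were picked by gene symbol and are 9 of the 18909 genes in the count table. S100 proteins usually work as dimers that change shape when calcium binds and then hold on to a partner such as an annexin or a part of the cytoskeleton. S100a10 is the known exception, since it no longer binds calcium and pairs with annexin A2 without it. Several members are abundant in fibroblasts, S100a4 is also known as fibroblast-specific protein, and some members are released from cells and act on receptors such as the one encoded by Ager.

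The data come from STRT (single-cell tagged reverse transcription) sequencing, which tags the 5′ ends of transcripts, here in bulk samples of mouse embryonic fibroblasts (MEFs), of embryonic stem cells (ESCs) and of MEFs undergoing reprogramming to pluripotency. The study asked how a constitutively active form of the TGF-β effector Smad3 (Smad3CA) alters gene expression as reprogramming proceeds. Each of the 10 groups had 3 biological replicates. Within each reprogramming series the replicates are described as paired over days.

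The MEF group was wild type, of strain 129, and was grown in medium without LIF that held heparin at 1 ng/ml and FGF2 at 5 ng/ml. The ESC group was the TNG MKOS line, grown with 100 U/ml LIF. The reprogramming cells came from chimeric embryos made with that line. They carried the MKOS cassette at the Sp3 locus, which expresses the reprogramming factors c-Myc, Klf4, Oct4 and Sox2 together with mOrange when doxycycline is present, an rtTA transactivator under the CAG promoter, and a GFP reporter at Nanog that removes that allele's function. They were plated among wild-type MEFs and infected with a pMXs retrovirus that expressed either blue fluorescent protein (Cont) or Smad3CA (+Sm3CA). ESC medium, vitamin C and doxycycline at 300 ng/ml were given throughout, and cells were sorted for mOrange after 3, 6, 8 or 10 days. The sort selects cells in which the cassette is on, whatever state they have reached, so each library is a mixture. No infection, doxycycline or sort is stated for the MEF and ESC groups, and all reprogramming cells derive from 1 targeted line. In bulk samples of this kind, fewer cells of a type and less RNA per cell cannot be told apart.

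The 84 wells of the count table were summed to 30 libraries, 3 wells for each replicate and 2 on day 10. The libraries held 1008596 to 2296059 reads, with a median of 1602511. The medians were 1178845 in Cont and 1012324 in +Sm3CA on day 10, against 1413897 and 1973278 on day 8. Levels are given as normalised reads, the read count divided by the size factor of the library, with the mean ± SD of 3 libraries. Reads are not molecules, so intervals from counts cover counting error only. Pairs of replicates of a group differed with a chi-square per degree of freedom of 2.22 to 8.71 over all genes, except in the pairs that held +Sm3CA day 8 replicate 2 (14.48 and 23.81) or ESC replicate 2 (24.97 and 26.09). These libraries stand apart from the others of their groups, and calls that change without them are given at each result. A group with 3 reads or fewer over its 3 libraries was taken to be at the limit of detection.

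Smad3 was looked at first, since its reads combine the endogenous gene and the vector. On day 3 the Cont libraries had 18.7, 5.19 and 8.94 normalised reads of Smad3 and the +Sm3CA libraries 184, 89 and 126. On day 6 they had 11.1, 22 and 14.9 against 49.6, 90.8 and 47.2, and on day 8 9.06, 8.44 and 7.16 against 77.9, 82.1 and 48.4. On day 10 the values were 14.8, 21.5 and 25.4 in Cont and 47.7, 32.8 and 44.3 in +Sm3CA. Every +Sm3CA library was above every Cont library of its day, as the labels say. On day 10 the groups lay closest together, and the log2 fold change of Smad3 was 1.00 (SE 0.357) with an adjusted p of 0.12 by the edgeR quasi-likelihood test (Benjamini-Hochberg adjustment).

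The fibroblast and pluripotency markers separated the MEF and ESC libraries. The 10 fibroblast markers summed to 8106, 7761 and 10651 normalised reads in the MEF libraries and to 174, 154 and 116 in the ESC libraries, where Col1a2, Col3a1, Twist2 and Prrx1 had no read and Vim made up 96.3% of the sum. The 10 pluripotency markers summed to 32623, 54957 and 29379 in ESCs, with Dppa5a the most abundant, and to 8.89, 14.1 and 13 in MEFs, where Utf1, Esrrb, Lin28a and Pou5f1 had no read. In the reprogramming cells Pou5f1 and Sox2 can include reads of the cassette.

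The annexin partners S100a6, S100a10 and S100a11 were highest in MEFs and lowest in ESCs. S100a6, or calcyclin, is known from proliferating fibroblasts. Its level was 11940 ± 3020 in MEF, 4035 ± 1684 in +Sm3CA day 3, 3983 ± 890 in Cont day 3 and 3963 ± 231 in Cont day 10. It was 2819 ± 479 in +Sm3CA day 10, 2358 ± 571 in Cont day 8 and 2046 ± 117 in Cont day 6. The lowest levels were 1984 ± 605 in +Sm3CA day 8, 1756 ± 261 in +Sm3CA day 6 and 213 ± 123 in ESC. The MEF libraries were above all others, the ESC libraries below all others, and the Cont day 10 libraries above those of +Sm3CA day 10. The other neighbours in this order overlapped. S100a11 binds annexin A1. Its level was 7005 ± 1652 in MEF, 2161 ± 439 in +Sm3CA day 3, 2088 ± 236 in Cont day 3, 1556 ± 97.1 in Cont day 10 and 1400 ± 233 in Cont day 8. It was 1127 ± 67.7 in Cont day 6, 1066 ± 239 in +Sm3CA day 10, 989 ± 84.4 in +Sm3CA day 6, 928 ± 408 in +Sm3CA day 8 and 408 ± 80.7 in ESC. The MEF libraries again stood apart. So did Cont day 3 from Cont day 10, and Cont day 8 from Cont day 6, whereas +Sm3CA day 8 reached down to the ESC values through replicate 2, with 465 normalised reads. S100a10, the annexin A2 partner, had the flattest course of the 3. Its level was 3514 ± 777 in MEF, 3198 ± 392 in Cont day 3, 2826 ± 472 in +Sm3CA day 3, 2529 ± 114 in Cont day 10 and 2516 ± 112 in Cont day 6. It was 2409 ± 364 in +Sm3CA day 6, 2309 ± 182 in Cont day 8, 1904 ± 641 in +Sm3CA day 8, 1777 ± 277 in +Sm3CA day 10 and 625 ± 130 in ESC. Only the ESC libraries were apart from their neighbour in this order, and the 9 other groups overlapped from each to the next.

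S100a4, which binds non-muscle myosin and is expressed by fibroblasts and macrophages, was at its highest on day 3. Its level was 961 ± 380 in +Sm3CA day 3, 840 ± 236 in Cont day 3 and 507 ± 72.7 in MEF. It was 367 ± 174 in Cont day 10, 366 ± 139 in Cont day 8 and 270 ± 72.6 in Cont day 6. It was 176 ± 82.7 in +Sm3CA day 6, 155 ± 36.6 in +Sm3CA day 8, 123 ± 18.3 in +Sm3CA day 10 and 1.29 ± 2.23 in ESC. All day 3 libraries of both series were above all MEF libraries, though replicate 1 of Cont and of +Sm3CA, at 568 and 599, came close to the highest MEF value of 551. The series overlapped each other on day 3, neighbours from MEF down to +Sm3CA day 10 overlapped, and ESCs were apart.

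S100a1, best known for calcium handling in heart muscle, and S100a13, which takes part in the release of FGF1, have adjacent and opposite starts on chromosome 3 but did not follow the same course. The level of S100a1 was 310 ± 11.2 in +Sm3CA day 8, 265 ± 32.8 in Cont day 10, 235 ± 22.6 in Cont day 8, 228 ± 9.52 in Cont day 6 and 225 ± 42.5 in +Sm3CA day 3. It was 221 ± 13.6 in Cont day 3, 174 ± 17.2 in +Sm3CA day 6, 160 ± 54.4 in MEF, 159 ± 16.9 in +Sm3CA day 10 and 7.86 ± 3.81 in ESC. The +Sm3CA day 8 libraries were above all others, the ESC libraries below all others, and Cont day 3 was above +Sm3CA day 6. The remaining neighbours overlapped. The level of S100a13 was 298 ± 44 in MEF, 270 ± 29.9 in Cont day 8, 244 ± 31.2 in Cont day 6, 217 ± 45.5 in Cont day 10 and 206 ± 25.9 in Cont day 3. It was 206 ± 74.4 in +Sm3CA day 8, 204 ± 66.5 in +Sm3CA day 3, 198 ± 34.3 in +Sm3CA day 6, 183 ± 113 in ESC and 174 ± 28.4 in +Sm3CA day 10. All neighbours overlapped, and the highest mean of S100a13 was 1.72 times the lowest. In ESCs it ranged from 95.2 in replicate 3 to 311 in replicate 2.

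S100a14 and S100a16 are known from epithelia, and S100a3 from the hair cuticle. S100a14 and S100a16 were highest on day 10. S100a14 had no read in the MEF and ESC libraries. Its level was 62.7 ± 12.9 in +Sm3CA day 10, 54.6 ± 22.4 in Cont day 10, 26.3 ± 10.7 in +Sm3CA day 8 and 16.2 ± 12.5 in Cont day 8. It was 9.63 ± 3.28 in Cont day 6, 8.53 ± 1.47 in +Sm3CA day 6, 1.0 ± 0.26 in Cont day 3 and 0.618 ± 1.07 in +Sm3CA day 3. Both day 10 groups overlapped each other and lay above day 8, and day 6 lay above day 3, where Cont had 3 reads in all and +Sm3CA had 2. The level of S100a16 was 96.8 ± 12.3 in +Sm3CA day 10, 85.5 ± 20.5 in Cont day 10, 61.3 ± 8.57 in +Sm3CA day 8 and 54.3 ± 6.16 in Cont day 6. It was 54 ± 2.21 in Cont day 8, 53.4 ± 8.89 in +Sm3CA day 6, 50.7 ± 14.4 in +Sm3CA day 3 and 50.1 ± 4.95 in Cont day 3. It was 5.6 ± 1.24 in MEF and 0.305 ± 0.527 in ESC. Day 10 was apart from day 8, all reprogramming groups were apart from MEFs, and MEFs from ESCs, while days 3 to 8 overlapped. The level of S100a3 was 52.6 ± 17.1 in Cont day 10, 40.7 ± 10.6 in +Sm3CA day 3, 29.8 ± 9.7 in Cont day 3 and 25.4 ± 11 in +Sm3CA day 10. It was 22.9 ± 4.07 in +Sm3CA day 8, 21.2 ± 4.34 in Cont day 8, 11.2 ± 7.31 in Cont day 6, 8.52 ± 2.3 in +Sm3CA day 6 and 5.4 ± 4.46 in MEF, and it had no read in ESCs. Cont day 8 was apart from Cont day 6 and MEFs from ESCs, and the other neighbours overlapped.

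**Figure D1:**
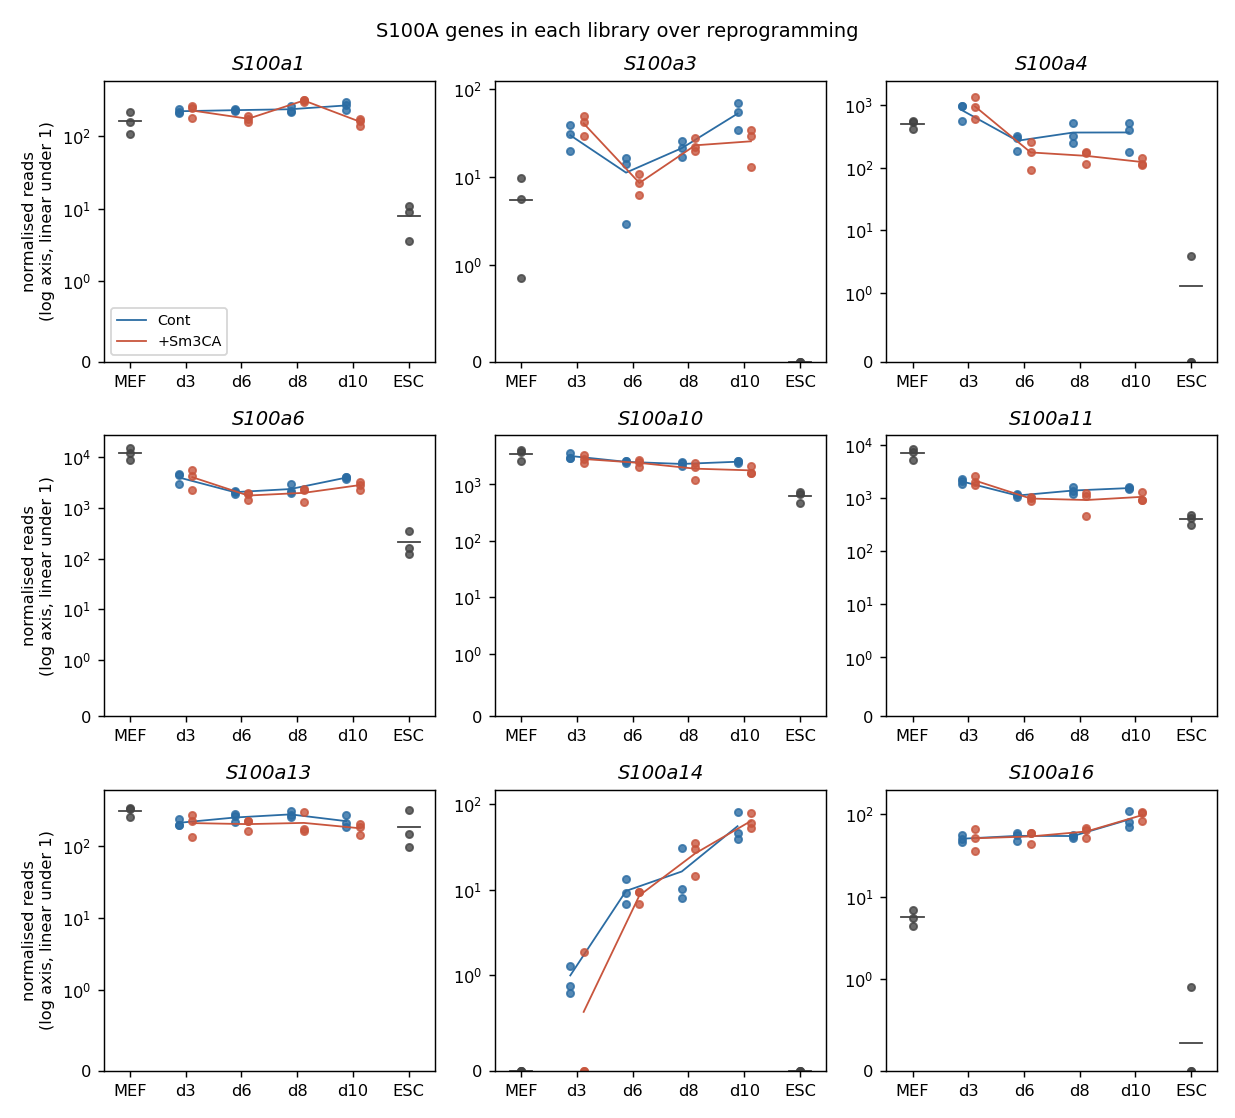
Normalised reads of the 9 S100A genes (vertical axis, log scale above 1 and linear below) in MEFs, in ESCs and by day of reprogramming. Each point is 1 library, blue for Cont, red for +Sm3CA and grey for MEFs and ESCs, and lines and bars give group means. S100a6 and S100a11 are highest in MEFs, S100a14 has no read in MEFs or ESCs, and neighbouring groups of S100a13 overlap.

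The first comparison set the end state against the starting state. In ESCs 5 of the 6 S100A genes that could be tested were lower than in MEFs and none was higher. Among all 8798 genes tested 52.3% passed the threshold of an adjusted p under 0.05 in the edgeR quasi-likelihood test (Benjamini-Hochberg adjustment), 28.8% as lower in ESCs. The median log2 fold change of the 6 was -4.15, also with S100a4 at its bound, and that of all genes was -0.07. S100a6 had 14890, 12070 and 8855 normalised reads in MEFs and 160, 354 and 126 in ESCs, and S100a11 had 8473, 7326 and 5217 and 427, 477 and 319. The groups did not overlap for either gene. Their log2 fold changes were -5.81 (SE 0.483) for S100a6 (adjusted p 7.24e-08) and -4.09 (SE 0.371) for S100a11 (adjusted p 1.92e-07). S100a1 had 217, 156 and 108 normalised reads in MEFs and 11, 3.61 and 9.0 in ESCs, a log2 fold change of -4.21 (SE 0.441, adjusted p 9.38e-07). S100a10 had 4095, 3816 and 2632 in MEFs and 725, 672 and 478 in ESCs, which gave -2.48 (SE 0.337, adjusted p 1.48e-05). ESCs thus kept a measurable level of S100a10 and S100a11, with no overlap with MEFs.

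S100a4 had 3 reads in ESCs, all in replicate 3, and 1488 reads in MEFs. The ratio of MEFs to ESCs was 404, with an exact 95% counting interval of 138 to 1960. Its fitted log2 fold change of -8.50 (adjusted p 1.61e-08) moved to -11.85 without ESC replicate 3 and to -7.73 without ESC replicate 1, so its size rests on those few reads, while its direction did not change. S100a3 and S100a16 were too low in both groups to enter the test. S100a3 had 15 reads in MEFs and none in ESCs, which is at least 4.36-fold lower in ESCs against a floor of 3 reads over the group. S100a16 had 17 reads in MEFs and 1 in ESCs, a ratio of 13.8 with a counting interval of 2.17 to 579. S100a14 had no read in either group. Markers of other cells also differed. Fibroblast markers were lower in ESCs in 8 of 8 tested (median -8.97). Macrophage markers summed to 1997, 1180 and 468 in MEFs, led by Lyz2, and to 18.3, 34.3 and 12.9 in ESCs, led by Cd68 with Ptprc, Cd14, Csf1r, Tyrobp and Fcer1g at 0, and 2 of 3 tested were lower (median -9.13). Epithelial markers summed to 101, 53.2 and 78.6 in MEFs, led by Krt18 with Epcam and Esrp1 at 0, and to 488, 421 and 453 in ESCs, led by Cdh1 with none at 0, and 5 of 6 tested were higher and 1 lower (median 6.43). Markers at 0 in MEFs or ESCs entered the test through their reads in the other group. Medians of lists with such markers are of fitted values and not measured folds. Whether the cells of these markers have a part in the S100A results was not tested.

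S100a13 was the member tested that did not pass. It had 326, 321 and 247 normalised reads in MEFs and 144, 311 and 95.2 in ESCs, so ESC replicate 2 lay within the range of MEFs and the other ESC libraries below it. The log2 fold change was -0.71 (SE 0.37) with an adjusted p of 0.116. Without ESC replicate 2 it was -1.22 with an adjusted p of 4.97e-05, and with all 30 libraries in the fit it was -0.64 with an adjusted p of 0.0382; the adjusted p of S100a13 ranged from 4.97e-05 to 0.432 over 11 alternatives. In that larger fit, where 6542 of 10979 genes passed, 8 S100A genes were lower in ESCs, S100a13 among them.

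Between MEFs and Cont day 3, the first step of reprogramming, the S100A genes moved both ways. S100a3, S100a16, S100a1 and S100a4 rose and S100a6 and S100a11 fell, 6 of the 9 members, where 43.4% of the 10979 genes tested passed, 22.6% as higher and 20.9% as lower. The share called in all genes was high in this comparison. The groups differ in genotype, medium, infection, doxycycline and sorting, whose contributions cannot be told apart. The median log2 fold change was 0.29 for the 8 members above the floor (0.59 with the fitted value of S100a14, which was not) and 0 for all genes. With DESeq2's size factors in place of TMM the median of all genes was -0.1.

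Of the annexin partners S100a6 and S100a11 fell. S100a6 went from 14890, 12070 and 8855 normalised reads in MEFs to 2964, 4378 and 4606 in Cont day 3, and S100a11 from 8473, 7326 and 5217 to 1829, 2291 and 2143. No library of either group reached the other group's range. The log2 fold changes were -1.46 (SE 0.288) for S100a6 (adjusted p 6.03e-05) and -1.63 (SE 0.249) for S100a11 (adjusted p 9.55e-07). S100a10 gave -0.02 (SE 0.224) with an adjusted p of 0.969 and overlapping libraries. In the other direction S100a16 went from 4.44, 5.43 and 6.91 to 55.3, 45.4 and 49.6, and S100a3 from 5.56, 9.77 and 0.864 to 19.6, 38.9 and 30.9. Every Cont day 3 library was above every MEF library for both. S100a16 rose by a log2 fold change of 3.23 (SE 0.336, adjusted p 1.34e-10) and S100a3 by 2.61 (SE 0.519, adjusted p 7.73e-05), which became 3.32 without MEF replicate 2. S100a14 was at or under the floor in both groups, so no fold is given.

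The rises of S100a1 and S100a4 were smaller and less firm. S100a4 had 551, 546 and 423 normalised reads in MEFs and 568, 974 and 978 in Cont day 3, without overlap, and a log2 fold change of 0.85 (SE 0.317, adjusted p 0.0268). Its adjusted p ranged from 0.000568 to 0.152 over 11 alternatives, and the call was lost with DESeq2's size factors (0.0593), in the DESeq2 Wald test (0.152), and without MEF replicate 1 (0.0591), 2 (0.0615) or 3 (0.0991) or Cont day 3 replicate 2 (0.105) or 3 (0.133). S100a1 had 217, 156 and 108 in MEFs and 210, 217 and 236 in Cont day 3, where MEF replicate 1 overlapped the Cont range, and a log2 fold change of 0.59 (SE 0.207, adjusted p 0.019). Its adjusted p ranged from 0.00416 to 0.168 over 11 alternatives, and the call was lost with DESeq2's size factors (0.0627) and without MEF replicate 2 (0.0796), MEF replicate 3 (0.168) or Cont day 3 replicate 3 (0.103). S100a13 was lower in every Cont day 3 library than in every MEF library, with -0.41 (SE 0.266), but its adjusted p was 0.213.

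The summed fibroblast markers went the same way as S100a6 and S100a11, from 8106, 7761 and 10651 normalised reads in MEFs to 1036, 1375 and 1412 in Cont day 3, with Vim the most abundant in both, and 7 of 9 tested fibroblast markers fell (median log2 fold change -2.31). The keratinocyte markers went the way of S100a3 and S100a16, from 13.3, 18.5 and 18.2 to 488, 769 and 565, with Krt6a the most abundant in Cont day 3 and Krt5 and Trp63, which define basal keratinocytes, at 0. Of these, 4 of 6 tested rose (median 3.49). Summed epithelial markers were 101, 53.2 and 78.6 in MEFs, with Krt18 the most abundant and Epcam and Esrp1 at 0, and 165, 188 and 169 in Cont day 3, with Krt8 the most abundant, and 3 of 8 tested rose and 2 fell (median 1.83). S100a4 rose over this step while fibroblast markers fell. Macrophage markers, led by Lyz2 with none at 0, summed to 1997, 1180 and 468 in MEFs and 984, 1122 and 384 in Cont day 3, with overlap, and 3 of 7 tested fell (median -1.06). Pluripotency sums went from 8.89, 14.1 and 13 in MEFs to 77.6, 73.9 and 93.5 in Cont day 3. Of 10 pluripotency markers tested, 4 rose (median 1.53). The part of these cell types in the S100A results was not tested.

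From day 3 to day 6 the same 3 members fell in both series, S100a4, S100a6 and S100a11, and S100a14 rose in both. S100a3 fell in +Sm3CA. In Cont, 4 of 9 members passed, 1 higher and 3 lower, against 4.92% of all genes (2.94% higher, 1.98% lower). In +Sm3CA, 5 of 9 passed, 1 higher and 4 lower, against 12.4% of all genes (6.52% higher, 5.87% lower). S100a1, S100a13 and S100a16, which did not pass, gave 0.05, 0.26 and 0.12 in Cont and -0.35, -0.02 and 0.12 in +Sm3CA, where S100a10 gave -0.21. The median log2 fold change of the members was -0.34 in Cont and -0.35 in +Sm3CA, with 0.02 and 0.04 for all genes, and placing S100a14 at its bound left the medians as they were. Day 3 libraries came from other rows of the sequencing plate than day 6 libraries, so this step and the plate row cannot be told apart.

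S100a4 went from 568, 974 and 978 normalised reads to 326, 296 and 188 in Cont and from 599, 1357 and 926 to 92.3, 258 and 177 in +Sm3CA. No day 6 library reached the day 3 range. The log2 fold change of S100a4 was -1.63 (SE 0.324) in Cont (adjusted p 0.00127) and -2.42 (SE 0.335) in +Sm3CA (adjusted p 2.52e-06) by the edgeR quasi-likelihood test (Benjamini-Hochberg adjustment); whether the falls differed between the series was not tested. S100a3 went from 29.2, 50.1 and 42.8 to 8.55, 6.21 and 10.8 in +Sm3CA, a fall by a log2 fold change of -2.25 (SE 0.465, adjusted p 0.000929). In Cont S100a3 went from 19.6, 38.9 and 30.9 to 16.6, 2.87 and 14.1, also without overlap, with -1.33 (SE 0.444) and an adjusted p of 0.0735, which ranged from 0.0116 to 0.362 over 11 alternatives and passed in the DESeq2 Wald test, without the filter on low counts, and with only the 6 libraries compared.

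S100a6 went from 2964, 4378 and 4606 to 1912, 2128 and 2099 in Cont, with no overlap, and its log2 fold change was -0.95 (SE 0.285, adjusted p 0.0393). With the replicates as a block within each series, the value of S100a6 was -0.93 with an adjusted p of 0.0507. The call was also lost without Cont day 3 replicate 2 (0.143) or 3 (0.158) or Cont day 6 replicate 1 (0.145), 2 (0.111) or 3 (0.094), and its adjusted p ranged from 5.85e-07 to 0.158 over 11 alternatives. S100a11 went from 1829, 2291 and 2143 to 1180, 1051 and 1151, with -0.88 (SE 0.246, adjusted p 0.025). Leaving out any of the same 5 libraries took it over the threshold too, in the same order to 0.108, 0.0775, 0.072, 0.121 and 0.0711, and its adjusted p ranged from 6.13e-07 to 0.121 over 11 alternatives. S100a10 did not pass in Cont, at -0.34 with an adjusted p of 0.457. It passed only when the 6 libraries compared were fitted alone, at -0.33 with an adjusted p of 0.0365 in a range of 0.0365 to 0.74 over 11 alternatives.

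In +Sm3CA, S100a6 went from 2251, 5596 and 4257 to 1458, 1939 and 1872, with a log2 fold change of -1.18 (SE 0.286, adjusted p 0.00472). The call was lost without +Sm3CA day 3 replicate 2, the highest library of S100a6 in that group, at -0.85 with an adjusted p of 0.083 in a range of 8.03e-05 to 0.083 over 11 alternatives. S100a11 went from 1806, 2651 and 2025 to 893, 1049 and 1026, with -1.10 (SE 0.247, adjusted p 0.00216), and passed under every alternative run.

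S100a14 rose from 3 reads on day 3 to 35 on day 6 in Cont, a ratio of 10.0 with a counting interval of 3.17 to 51.0, and from 2 to 27 reads in +Sm3CA, a ratio of 14.1 with an interval of 3.54 to 122. All day 6 libraries of S100a14, at 9.0, 6.7 and 13.2 and 6.84, 9.32 and 9.45 normalised reads, were above all day 3 libraries. The adjusted p of S100a14 was 0.0095 in Cont and 0.00391 in +Sm3CA. The Cont call was lost without Cont day 3 replicate 1 (0.0567) or 3 (0.0603), in a range of 0.00125 to 0.0603 over 10 alternatives. The fitted fold change of S100a14 in +Sm3CA, 3.60, became 6.22 without +Sm3CA day 3 replicate 2, which held both reads, and 3.00 without replicate 1. Epithelial markers moved with S100a14 over this step. They summed to 165, 188 and 169 on day 3 and 893, 906 and 1039 on day 6 in Cont, and to 193, 296 and 227 and 818, 817 and 812 in +Sm3CA, with Krt8 the most abundant and none of the 8 at 0. Of the 8, 5 rose in each series, with medians of 2.60 and 2.03, and their part in the rise of S100a14 was not tested.

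Other markers moved with the members that fell, S100a4, S100a6, S100a11 and S100a3. From day 3 to day 6 the summed fibroblast markers went from 1036, 1375 and 1412 normalised reads to 901, 907 and 801 in Cont and from 1321, 1141 and 1308 to 815, 1016 and 884 in +Sm3CA, without overlap, with Vim the most abundant and none of the 10 at 0. Of 9 tested, 1 was lower in Cont (median -0.63) and 2 were lower in +Sm3CA (median -1.06). The keratinocyte sums went from 488, 769 and 565 to 521, 432 and 597 in Cont, with overlap, and from 507, 1097 and 963 to 339, 405 and 381 in +Sm3CA, without overlap. Krt6a was the most abundant on day 3 and Krt14 on day 6, with Trp63 at 0 in all 4 groups and Krt5 at 0 in Cont. In Cont edgeR and DESeq2 called 0 of 6 keratinocyte markers and 2 had an unadjusted p under 0.05 (median -0.38), and in +Sm3CA 2 of 6 were lower (median -0.51). Macrophage sums, led by Lyz2 with none at 0, went the other way, from 984, 1122 and 384 to 1453, 2001 and 1495 in Cont, without overlap, and from 312, 376 and 648 to 808, 596 and 1024 in +Sm3CA, with overlap. By edgeR and DESeq2 0 of 7 passed in each series and 2 had an unadjusted p under 0.05 (medians 0.87 and 0.92). Pluripotency sums went from 77.6, 73.9 and 93.5 to 127, 134 and 148 in Cont, without overlap. In +Sm3CA they went from 74.5, 61.2 and 81.4 to 199, 152 and 211, also without overlap. Of 10 pluripotency markers tested, 1 was higher in Cont (median 0.81) and 2 in +Sm3CA (median 1.67). The part of these markers in the falls of the S100A genes was not tested.

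From day 6 to day 8 no member passed in Cont, where 0.975% of all genes did. By edgeR 0 of the 9 members also had an unadjusted p under 0.05, where 1063 of 10979 genes did, and DESeq2 called 0. Log2 fold changes in Cont were 0.89 for S100a3 and 0.30 for S100a11, whose day 8 libraries were all above day 6, 0.70 for S100a14 and 0.43 for S100a4, and those of S100a1, S100a6, S100a10, S100a13 and S100a16 lay between -0.13 and 0.20. In +Sm3CA, S100a1 rose, 1 of 9 against 2.85% of all genes (1.33% higher). It went from 157, 191 and 174 normalised reads to 320, 314 and 298. The groups were far apart, and each was narrow. The log2 fold change of S100a1 was 0.82 (SE 0.204, adjusted p 0.0194). The call was lost without +Sm3CA day 6 replicate 1 (0.0914) or 3 (0.117) or +Sm3CA day 8 replicate 1 (0.0652) or 2 (0.0828), while the fold change of S100a1 stayed between 0.76 and 0.90 with any library left out and its adjusted p ranged from 0.00114 to 0.117 over 11 alternatives. In the DESeq2 Wald test and without the filter on low counts 3 members rose, with S100a3 (1.44, adjusted p 0.0896 in edgeR) and S100a14 (1.60, 0.0552) added. The values of S100a4, S100a6, S100a10, S100a11, S100a13 and S100a16 lay between -0.35 and 0.18 in +Sm3CA. S100a14 also passed with only the 6 libraries compared and without +Sm3CA day 8 replicate 1 (0.0451, in a range of 0.0218 to 0.216 over 11 alternatives).

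From day 8 to day 10 S100a14 rose in Cont and S100a1 fell in +Sm3CA. In Cont that was 1 of 9 members against 1.26% of all genes (0.92% higher), and in +Sm3CA 1 of 9 against 2.05% (0.783% lower). Day 8 and day 10 libraries came from different plate rows, and the step and the row cannot be told apart. S100a1 went from 320, 314 and 298 normalised reads to 140, 163 and 173 in +Sm3CA, with a log2 fold change of -0.97 (SE 0.207, adjusted p 0.00499). The day 10 libraries lay within the range of MEFs, and all were below the day 8 libraries. In Cont S100a1 went from 219, 226 and 261 to 296, 269 and 231, with 0.14 (SE 0.203) and an adjusted p of 0.87.

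S100a14 had 7.93, 30.6 and 10.1 normalised reads on day 8 and 38.3, 45.4 and 80.1 on day 10 in Cont, and 14.2, 30 and 34.7 and 77.1, 59 and 52.1 in +Sm3CA. Day 10 was above day 8 in both series without overlap. The log2 fold change of S100a14 was 1.76 (SE 0.43) in Cont (adjusted p 0.0237) and 1.25 (SE 0.402) in +Sm3CA (adjusted p 0.092). The Cont call was lost without Cont day 8 replicate 1 (0.216), Cont day 8 replicate 3 (0.148) or Cont day 10 replicate 3 (0.28) and the fold change was 2.54 without Cont day 8 replicate 2; the adjusted p of S100a14 ranged from 0.00269 to 0.28 over 11 alternatives. S100a16 was higher on day 10 without overlap in both series, with 0.64 (SE 0.241) in Cont and 0.65 (SE 0.235) in +Sm3CA and adjusted p of 0.244 and 0.136. In Cont S100a3 (1.26, adjusted p 0.133) and S100a6 (0.72, 0.28) were also higher without overlap, and passed when only the 6 libraries compared were fitted, which makes 3 members in Cont. The same fit adds S100a14 in +Sm3CA. The other members, S100a4, S100a10, S100a11 and S100a13, lay between -0.34 and 0.12 in Cont, and with S100a3 and S100a6 between -0.33 and 0.50 in +Sm3CA.

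Markers of other cells moved over these steps too. From day 6 to day 8, where S100a1 rose in +Sm3CA, the macrophage sums of that series went from 808, 596 and 1024 to 1174, 1290 and 2416 without overlap, with Lyz2 the most abundant and none at 0. By edgeR 0 of 7 passed and 6 had an unadjusted p under 0.05, DESeq2 called 0, and the median was 1.32. Summed fibroblast markers went from 815, 1016 and 884 to 900, 1273 and 998, with Vim the most abundant on day 6, Col1a2 on day 8 and none at 0, and of 9 tested 2 were higher and 1 lower (median 0.70). From day 8 to day 10, where S100a14 rose in Cont and S100a1 fell in +Sm3CA, the pluripotency sums went from 173, 161 and 166 to 688, 496 and 1089 in Cont and from 179, 180 and 220 to 1120, 1235 and 2313 in +Sm3CA, with Pou5f1 the most abundant on day 8, Dppa5a on day 10 and none at 0. Of 10 tested, 5 were higher in Cont (median 2.08) and 4 in +Sm3CA (median 2.09). Epithelial sums went from 795, 747 and 709 to 873, 946 and 1087 in Cont and from 843, 806 and 886 to 1044, 1074 and 991 in +Sm3CA, with Krt8 the most abundant and none at 0, and 1 of 8 was higher in each (medians 0.55 and 1.12). Of the 2 glial markers tested, 1 was lower in Cont (median -3.82) and 2 were higher in +Sm3CA (median 3.14). The part of these markers in the S100A results was not tested.

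The effect of Smad3CA was then followed by day. On day 3 and day 6 no S100A gene passed in +Sm3CA against Cont, where 0.0195% and 0.00977% of the 10237 genes tested did. On day 3, 0 of 9 members had an unadjusted p under 0.05 in edgeR, where 523 of all 10237 genes did, and DESeq2 called 0. The largest values on that day among the 8 genes above the floor were 0.46 (SE 0.35) for S100a3 and 0.19 (SE 0.298) for S100a4, whose libraries overlapped, at 568, 974 and 978 in Cont and 599, 1357 and 926 in +Sm3CA. S100a1, S100a6, S100a10, S100a11, S100a13 and S100a16 lay between -0.18 and 0.04 on day 3, and S100a14 was at or under the floor in both groups. On day 6, 1 of 9 members had an unadjusted p under 0.05 in edgeR, where 426 of all 10237 genes did, and DESeq2 called 0. That member was S100a1, with 226, 238 and 220 normalised reads in Cont and 157, 191 and 174 in +Sm3CA. All +Sm3CA libraries lay below all Cont libraries, and the log2 fold change of S100a1 was -0.38 (SE 0.162) with an adjusted p of 1.0. S100a11 was also below in every library, with -0.18 (SE 0.22). S100a4 gave -0.61 (SE 0.317) with overlapping libraries, and S100a3, S100a6, S100a10, S100a13, S100a14 and S100a16 lay between -0.48 and 0.01. The median log2 fold change was 0.02 for the 8 members above the floor on day 3 (0.01 with S100a14) and -0.21 for the 9 on day 6, beside 0 and 0.01 for all genes.

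On day 8 S100a4 was lower in +Sm3CA, 1 of 9 members against 1.04% of all genes (0.654% lower). It had 253, 323 and 521 normalised reads in Cont and 171, 113 and 180 in +Sm3CA. The highest +Sm3CA library was below the lowest Cont library, and Cont replicate 3 stood above the other Cont libraries. S100a4 was 2.36-fold lower, a log2 fold change of -1.24 (SE 0.314) with an adjusted p of 0.0405 by the edgeR quasi-likelihood test (Benjamini-Hochberg adjustment). This call sat close to the threshold. It was lost in the DESeq2 Wald test (0.0798) and without Cont replicate 2 (0.0707), Cont replicate 3 (-0.90, adjusted p 0.177), +Sm3CA replicate 1 (0.0779) or +Sm3CA replicate 2 (-1.05, 0.21), in a range of 3.87e-08 to 0.21 over 11 alternatives.

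The other members on day 8 did not pass. S100a1 was higher in every +Sm3CA library, with 320, 314 and 298 normalised reads against 219, 226 and 261 in Cont, the reverse of day 6. Its log2 fold change was 0.41 (SE 0.157, adjusted p 0.177). S100a11 gave -0.58 (SE 0.22, adjusted p 0.175) and S100a13 -0.38 (SE 0.214, adjusted p 0.417), with overlap through +Sm3CA replicate 3. Without that library both passed as lower, S100a11 at -0.84 (adjusted p 0.0279, range 0.0279 to 0.678 over 11 alternatives) and S100a13 at -0.72 (0.0465, in a range of 0.0465 to 0.816 over 11 alternatives), which made 3 members with S100a4. S100a14 gave the highest value of the day, 0.74 (SE 0.403), with overlapping libraries, and S100a3, S100a6, S100a10 and S100a16 lay between -0.26 and 0.20. The median was -0.23 for the members and 0 for all genes.

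On day 10 S100a4 and S100a1 were lower in +Sm3CA, 2 of 9 members against 3.58% of all genes (2.74% lower). S100a4 had 177, 519 and 406 normalised reads in Cont and 111, 144 and 115 in +Sm3CA. The +Sm3CA libraries formed a narrow group below all Cont libraries, which themselves were spread, with replicate 1 nearest to +Sm3CA. S100a4 was 2.93-fold lower, with a log2 fold change of -1.55 (SE 0.332) and an adjusted p of 0.00346. The wells of a replicate gave like values. In CPM, S100a4 was at 115 and 128 in the wells of Cont replicate 1, at 374 and 397 in those of replicate 2 and at 307 and 292 in those of replicate 3, and between 68.9 and 102 in the 6 wells of +Sm3CA. S100a1 had 296, 269 and 231 normalised reads in Cont and 140, 163 and 173 in +Sm3CA. The groups were apart, and S100a1 was 1.65-fold lower, with -0.72 (SE 0.166, adjusted p 0.00699). The S100a4 call was lost without Cont replicate 2 (-1.22, adjusted p 0.0633, range 5.48e-12 to 0.0633 over 11 alternatives), and the S100a1 call without +Sm3CA replicate 1 (-0.62, adjusted p 0.067, range 0.000985 to 0.067 over 11 alternatives).

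Of the other 7 members on day 10, S100a3, S100a6, S100a10 and S100a11 were below Cont in every +Sm3CA library without passing the test. The share of all genes whose libraries lay apart in this way was not computed, so this describes single genes only. S100a3 had 54.3, 34.7 and 68.8 normalised reads in Cont and 29.4, 33.9 and 13 in +Sm3CA and a log2 fold change of -1.03 (SE 0.362, adjusted p 0.112). The annexin partners S100a6, S100a10 and S100a11 gave -0.47, -0.49 and -0.53, with adjusted p of 0.321, 0.175 and 0.207. S100a13 (-0.31), S100a14 (0.20) and S100a16 (0.19) had overlapping libraries. The median of the 9 was -0.49 and that of all genes -0.01.

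The interaction asked whether the difference between +Sm3CA and Cont itself changed from day 3 to day 10. S100a4 passed, with -1.74 (SE 0.446, adjusted p 0.0425), 1 of 9 members against 1.01% of all genes (0.899% lower). It went from 0.19 on day 3 to -1.55 on day 10. The call was near the threshold. It was lost in the DESeq2 Wald test (0.167) and without day 3 Cont replicate 1 (0.176) or 3 (0.0569), day 10 Cont replicate 2 (0.199) or 3 (0.12), day 3 +Sm3CA replicate 2 (0.18) or 3 (0.0845), or day 10 +Sm3CA replicate 1 (0.106), 2 (0.0724) or 3 (0.118), in a range of 7.44e-08 to 0.199 over 17 alternatives. The interaction of S100a1 was -0.74 (SE 0.231, adjusted p 0.122, range 0.0433 to 0.286 over 17 alternatives) and passed without day 3 +Sm3CA replicate 1 (-0.88, 0.0433). S100a3 gave -1.48, and S100a6, S100a10, S100a11, S100a13 and S100a16 lay between -0.57 and 0.19, while S100a14 is given no value since it was at the floor on day 3. The median of these 8 members was -0.53 (-0.49 with the fitted value of S100a14), and that of all genes -0.01.

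**Figure D2:**
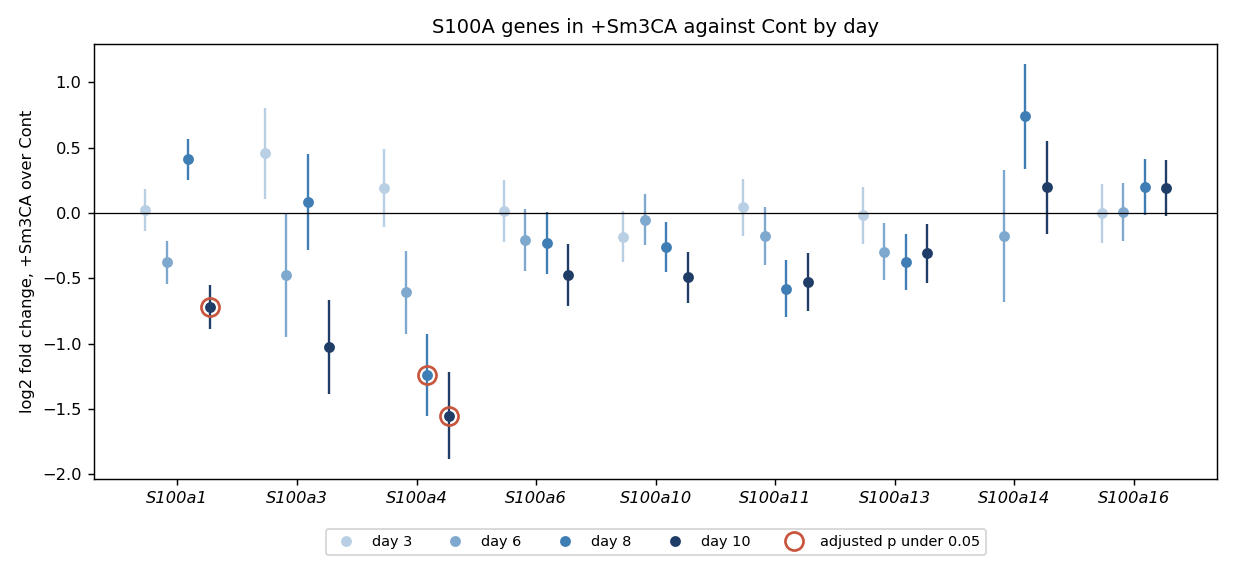
Log2 fold change of each S100A gene in +Sm3CA over Cont (vertical axis) by day of reprogramming, with bars of 1 standard error from edgeR. Red rings mark an adjusted p under 0.05, which S100a4 reached on days 8 and 10 and S100a1 on day 10. S100a14 is left out on day 3, where both groups were at or under 3 reads.

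Markers of other cells moved with these results. On day 10 the summed fibroblast markers were 785, 2104 and 1937 normalised reads in Cont, with Col1a2 the most abundant, and 902, 926 and 654 in +Sm3CA, with Col3a1 the most abundant, and none of the 10 was at 0. Of the 9 tested, 4 were lower in +Sm3CA (median log2 fold change -1.10). Macrophage markers summed to 623, 2656 and 2543 in Cont and 972, 888 and 1591 in +Sm3CA, with Lyz2 the most abundant and none of the 7 in the table at 0 (Adgre1 is not in the table), and 1 of 6 tested was lower (median -0.84). Cont replicate 1, where S100a4 was lowest among the Cont libraries, was also the Cont library with the lowest fibroblast and macrophage sums. On day 8 the fibroblast sums were 1054, 1081 and 1679 in Cont and 900, 1273 and 998 in +Sm3CA, with 1 of 9 tested lower (median -0.43), and Cont replicate 3 was highest for both these markers and S100a4. The macrophage sums of day 8, 2559, 1589 and 1553 and 1174, 1290 and 2416, overlapped, 0 of 6 passed in edgeR or DESeq2 and 0 had an unadjusted p under 0.05. In the interaction of day 10 against day 3, 2 of 9 fibroblast markers were lower (3 by DESeq2, median -0.91), as were 2 of 6 keratinocyte markers (median -0.29). Of 6 macrophage markers 0 passed in edgeR or DESeq2 and 0 had an unadjusted p under 0.05 (median -0.35). The fibroblast and macrophage markers also have reads in MEFs, and S100a4 itself is known from both cell types. Of the keratinocyte markers, Krt5, Krt6a and Trp63 had no read in MEFs. How many cells without the cassette remained after the sort for mOrange is not known. The part of the cells of these markers in the S100a4 result was not tested.

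Summed keratinocyte markers were lower in every +Sm3CA library than in every Cont library on days 8 and 10, at 368, 315 and 471 against 582, 836 and 745 in Cont on day 8 and 569, 433 and 249 against 790, 1116 and 1009 on day 10. Krt6a was the most abundant, 2 of 6 tested were lower on each day (medians -0.24 and -0.33), Trp63 was at 0 in +Sm3CA on days 8 and 10, and Krt5 in +Sm3CA on day 8 and in Cont on day 10. The pluripotency sums of day 10 were higher in every +Sm3CA library, 1120, 1235 and 2313 against 688, 496 and 1089, with 2 of 9 tested passing (median 0.60). On day 8 they were 179, 180 and 220 against 173, 161 and 166, also without overlap, edgeR called 0 of 9, 3 had an unadjusted p under 0.05, DESeq2 called 1, and the median was 0.72. The epithelial sums of day 8, led by Krt8, were 843, 806 and 886 in +Sm3CA against 795, 747 and 709 in Cont, without overlap, with 1 of 8 tested higher (median 0.35). Epithelial markers overlapped on day 10, 1044, 1074 and 991 against 873, 946 and 1087. By edgeR 0 of 8 passed and 3 had an unadjusted p under 0.05, DESeq2 called 0, and the median was 0.25. Of the glial markers, Mbp was the most abundant in Cont day 8 and +Sm3CA day 10 and had 1273, 147 and 184 normalised reads in Cont day 8 against 19.2, 6.13 and 25.8 in +Sm3CA day 8, and 11.1, 20.3 and 12.3 in Cont day 10 against 520, 33.9 and 19.5 in +Sm3CA day 10, with Sox10 at 0 in Cont day 8. On day 8 both tested glial genes were lower in +Sm3CA (median -4.65) and on day 10 1 of 2 was higher (median 2.28). The part of these markers in the S100A results was not tested.

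**Figure D3:**
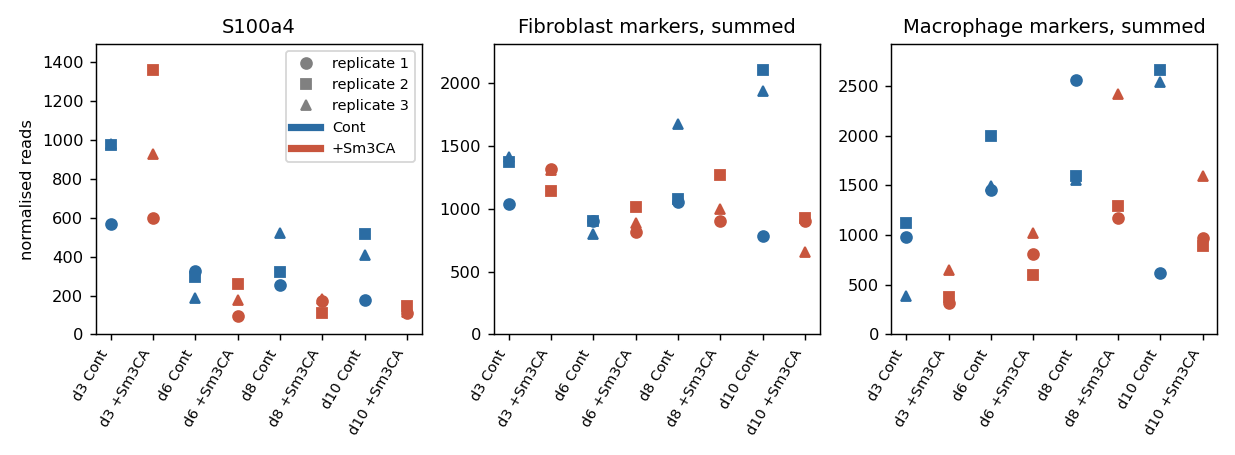
Normalised reads of S100a4, of the 10 fibroblast markers summed and of the 7 macrophage markers summed (vertical axes) in each Cont (blue) and +Sm3CA (red) library by day. Marker shapes give the replicate. On day 10 Cont replicate 1 is the lowest Cont library in all 3 plots.

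The S100A genes were also set against ESCs at the end of each series. In ESCs 8 of 9 members were lower than in Cont day 10 and none was higher, against 51.8% of all genes (30.3% lower), and 8 of 9 were lower than in +Sm3CA day 10, against 45.8% (27.2% lower). Both comparisons use the same 3 ESC libraries, which the comparison with MEFs uses too. Day 10 cells and ESCs also came from different plate rows and numbers of wells, and infection, doxycycline and sort are stated for day 10 cells only, so these and the cell state cannot be told apart. The medians of the members were -4.92 and -4.22, also with the genes near the limit of detection placed at their bounds, and the median of all genes was -0.15 in each. For S100a6, which had 3697, 4117 and 4074 normalised reads in Cont day 10, 2308, 3257 and 2892 in +Sm3CA day 10 and 160, 354 and 126 in ESCs, the log2 fold changes of ESCs were -4.25 (SE 0.328) and -3.79 (SE 0.322). For S100a1 they were -4.92 (SE 0.296) and -4.22 (SE 0.302). S100a10 gave -2.01 and -1.53 and S100a11 -1.93 and -1.42. The adjusted p of these 4 genes was at most 1.24e-05.

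The remaining called members were near the limit of detection in ESCs. S100a4 had 1008 reads in Cont day 10 and 299 in +Sm3CA day 10 against 3 in ESCs, ratios of 301 (counting interval 103 to 1460) and 101 (34.2 to 492). S100a16 had 237 and 234 reads against 1, ratios of 212 (37.7 to 8420) and 237 (42.1 to 9400). S100a3, with no read in ESCs, was at least 42.5-fold lower there than in Cont day 10 and at least 20.6-fold lower than in +Sm3CA day 10. S100a14 was at least 44.2-fold and 50.7-fold lower. Fitted log2 fold changes of S100a4 against Cont and +Sm3CA went from -8.06 and -6.52 to -11.58 and -10.07 without ESC replicate 3 and to -7.27 and -5.76 without ESC replicate 1. Those of S100a16 went from -7.33 and -7.54 to -9.47 and -9.71 without ESC replicate 1. S100a13 did not pass, at -0.28 (SE 0.274, adjusted p 0.402) and 0.01 (SE 0.278, adjusted p 0.985). Without ESC replicate 2 its value against Cont was -0.77 with an adjusted p of 0.0119, in a range of 0.0119 to 0.88 over 11 alternatives, so that all 9 members were then lower in ESCs than in Cont day 10.

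Markers of fibroblasts, macrophages and keratinocytes were lower in ESCs together with the S100A genes. Fibroblast sums of 174, 154 and 116 in ESCs stood against 785, 2104 and 1937 in Cont and 902, 926 and 654 in +Sm3CA on day 10, and 7 of 9 (median -4.72) and 6 of 9 (median -3.57) were lower. Macrophage sums in ESCs were 18.3, 34.3 and 12.9, with Cd68 the most abundant and Ptprc, Cd14, Csf1r, Tyrobp and Fcer1g at 0, and 7 of 7 were lower in each comparison (medians -7.96 and -6.86). Keratinocyte sums in ESCs were 32.9, 36.1 and 23.1, with Sfn the most abundant and Krt5, Krt14, Krt6a, Ivl, Sprr1a and Trp63 at 0, and 4 of 6 (median -6.14) and 5 of 6 (median -6.38) were lower. Epithelial markers had 1 higher and 3 lower of 8 against Cont (median -0.20) and 3 of 8 lower against +Sm3CA (median -0.47). Of 2 glial markers tested, 1 was lower than in Cont (median -2.85) and 2 were lower than in +Sm3CA (median -5.15). Of 10 pluripotency markers, 10 were higher in ESCs in each comparison (medians 4.46 and 3.68). Markers at 0 in ESCs entered the test through their reads in the other groups. Medians of lists with such markers are of fitted values and not measured folds. The part of these markers in the lower S100A values of ESCs was not tested.

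Known binding partners and receptors of S100A proteins were counted in the same comparisons. Of 18 listed partners 14 could be tested between ESCs and MEFs, and 3 were higher and 11 lower in ESCs, with a median log2 fold change of -3.49 beside -0.07 for all genes, of which 52.3% passed, 28.8% as lower. The 4 with the smallest p were the annexins Anxa1 (-8.37), Anxa5 (-8.11) and Anxa2 (-5.64) and the tropomyosin Tpm1 (-6.29). Ahnak, a scaffold bound by S100a10 with annexin A2, gave -3.29. The annexins tested, Anxa1, Anxa2, Anxa5 and Anxa6, were lower in ESCs, as were S100a10 and S100a11, and Anxa11 was too low to be tested. The 3 higher partners were Cacybp (1.65), Sugt1 (1.06) and Trp53 (1.34, with overlapping libraries). Of 15 tested between Cont day 3 and MEFs, 1, Cacybp, was higher and 9 were lower (median -1.20), where 43.4% of all genes passed, 20.9% as lower. From day 3 to day 6, 2 of 15 were lower in Cont (median -0.21) and 5 in +Sm3CA (median -0.55). Of all genes 4.92% and 12.4% passed, 1.98% and 5.87% as lower. In +Sm3CA 1 of 15 was lower from day 6 to day 8, beside 2.85% of all genes. Against Cont day 10, ESCs had 3 of 15 higher and 10 lower (median -1.31). Against +Sm3CA day 10 they had 2 higher and 10 lower (median -1). There 51.8% and 45.8% of all genes passed, 30.3% and 27.2% as lower.

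Between +Sm3CA and Cont, 2 of 15 partners were lower on day 8 (median -0.15) and 2 on day 10 (median -0.12). Of all genes, 1.04% passed on day 8 (0.654% lower) and 3.58% on day 10 (2.74% lower). On day 8 the partners called were Tpm1 at -0.74 (adjusted p 0.0356) and Actb at -0.77 (adjusted p 0.0364). On day 10 they were Tpm1 at -0.81 (adjusted p 0.00789) and Anxa1, partner of S100a11, at -0.59 (adjusted p 0.0445). Anxa2 was lower in every +Sm3CA library on day 10, with -0.36 (SE 0.178) and an adjusted p of 0.319, and Ahnak gave 0.02 (SE 0.159). The interaction had 1 partner lower, Tpm1 at -1.21 (SE 0.261, adjusted p 0.0121), against 1.01% of all genes (0.899% lower). On days 3 and 6 edgeR and DESeq2 called 0 of 15, and 1 and 2 had an unadjusted p under 0.05.

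The count table holds 15 other genes around the members on chromosome 3, of which 8 or fewer could be tested. Between ESCs and MEFs edgeR tested 5 neighbours and called 1 higher, Chtop at 1.75 (SE 0.464, adjusted p 0.00482), and 0 lower, 2 had an unadjusted p under 0.05, DESeq2 called 1 higher and 1 lower, and the median was 0.56 beside -0.07 for all genes. Of all genes 52.3% passed in that comparison. Between Cont day 3 and MEFs 1 of 8 neighbours tested was higher and 2 were lower (median 0.67), where 43.4% of all genes passed. From day 3 to day 6 1 of 8 was lower in Cont (median -0.05), and 2 were higher and 1 lower in +Sm3CA (median 0.12). Over that step 4.92% and 12.4% of all genes passed. In ESCs 2 of 8 were higher and 3 lower than in Cont day 10 (median 0.28). Against +Sm3CA day 10, 3 of 8 were higher and 2 lower (median 0.16). The shares of all genes were 51.8% and 45.8%. In +Sm3CA against Cont on day 10 edgeR called 0 of 8 neighbours, 2 (S100a7a and S100a8) had an unadjusted p under 0.05 and DESeq2 called 0, and their median was 0.19. Of the 6 other S100 genes in the table, S100a2, S100a5, S100a7a, S100a8, S100b and S100g, only S100a7a and S100a8 passed edgeR's filter among the reprogramming libraries. Between ESCs and MEFs no other S100 gene passed it, and DESeq2 called 1 as lower. S100a7a rose between MEFs and Cont day 3, at 2.43 (SE 0.744, adjusted p 0.00747), a call that DESeq2 did not make, and fell from day 3 to day 6 in Cont, at -3.56 (SE 0.819, adjusted p 0.00598), and in +Sm3CA, at -4.15 (SE 0.919, adjusted p 0.0021). S100a8 rose from day 8 to day 10 in +Sm3CA, from 3.09, 4.9 and 10.5 to 42.1, 22.9 and 124 normalised reads, at 3.37 (SE 0.741, adjusted p 0.00695). DESeq2 did not call this rise. It also makes 1 neighbour higher in that step (median 0.06), where 2.05% of all genes passed. In ESCs both S100a7a and S100a8 were lower than in Cont day 10, and S100a8 than in +Sm3CA day 10. In +Sm3CA against Cont on day 10 edgeR and DESeq2 called 0 of these 2, both had an unadjusted p under 0.05, and they went opposite ways. S100a8 was higher, at 1.32 (SE 0.628). S100a7a had 19 reads in Cont and 2 in +Sm3CA, at the limit of detection, so no fold is given. S100a2, S100a5, S100a7a and S100a8 are also among the neighbours, and S100b is also a glial marker.

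Over the 10 group means, the courses of some members lay close together and those of others did not. On the log2 scale of CPM, S100a4 had a Pearson correlation of 0.97 with S100a10 and of 0.9 with S100a6 and with S100a1. S100a6 had 0.92 with S100a10 and 0.91 with S100a11, and S100a3 had 0.89 with S100a16. S100a11 and S100a14 had -0.28, and S100a1 and S100a13, which share a start region, had 0.52. Each point is the mean of 3 libraries, and the values are a description of the courses only. Outside the family, the closest course was that of Mrgprf for S100a3 (0.971), Ghdc for S100a4 (0.992), Sh3kbp1 for S100a6 (0.996), Mcfd2 for S100a10 (0.99), Tagln for S100a11 (0.988), Gramd1a for S100a13 (0.921), Neat1 for S100a14 (0.986) and Zfp943 for S100a16 (0.985). Anxa2 was the third closest to S100a6, at 0.989.

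All 9 members lie on chromosome 3 in the GRCm38 assembly. S100a1 (ENSMUSG00000044080, chr3:90511034-90514392, minus strand), S100a13 (chr3:90514435-90524581), S100a14 (chr3:90526856-90528837), S100a16 (chr3:90537254-90543151), S100a3 (chr3:90560578-90602702), S100a4 (ENSMUSG00000001020, chr3:90603771-90606045) and S100a6 (ENSMUSG00000001025, chr3:90612882-90624181) span 113.1 kb. S100a11 (ENSMUSG00000027907, chr3:93520488-93526287) and S100a10 (chr3:93555080-93564643) lie 2.9 Mb further on, within 44.2 kb. All are protein-coding, and S100a1 alone is on the minus strand. Its start is 43 bases from that of S100a13 on the other strand. In the annotation S100a3 and S100a4 overlap the gene model Gm42674 by position, and S100a3 overlaps S100a2. Gm42674 is not in the count table, and how reads of such stretches were assigned is not known.

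**Figure D4:**
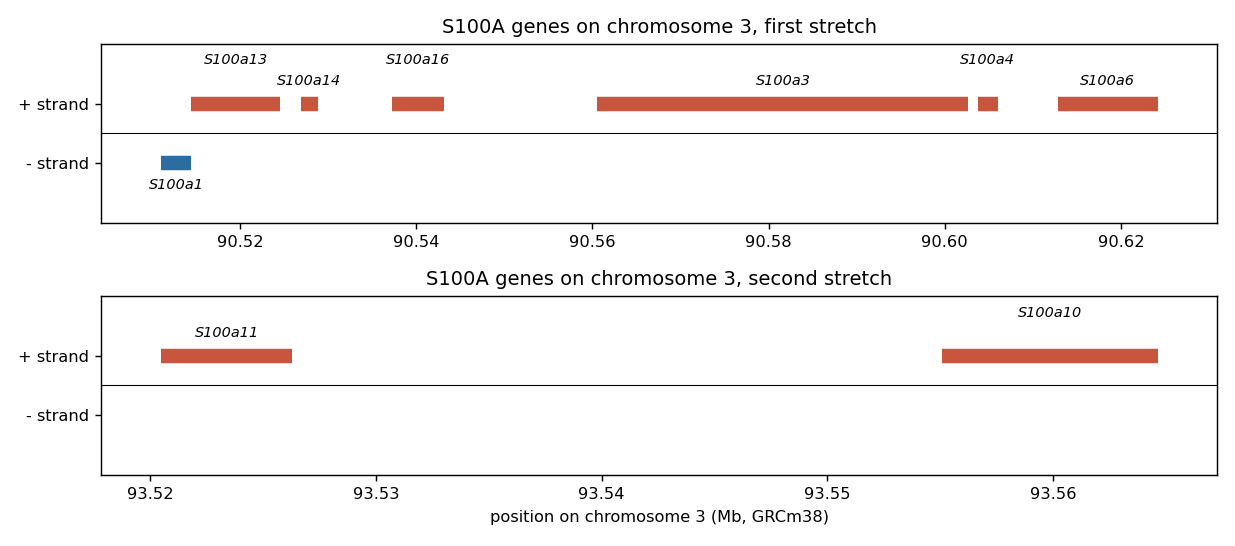
Positions of the 9 S100A genes on chromosome 3 (horizontal axis, Mb, GRCm38), with 7 members in the upper stretch and S100a11 and S100a10 in the lower one. Red bars are genes on the plus strand and the blue bar is S100a1 on the minus strand.

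Promoter windows from RefSeq on GRCm38.p6, 250 bases before to 50 after a start, were available for 7 members, in 11 windows; S100a10 and S100a14 have no entry. The motifs searched on both strands, chosen after these windows had been read, were the SMAD palindrome GTCTAGAC, the short SMAD element CAGAC, the AP-1 element TGANTCA, the E-box CACGTG, the octamer ATTTGCAT and the TATA element TATAAA, none of which contains another. Among all 32851 windows 0.213%, 49.6%, 7.81%, 7.15%, 1.74% and 13.6% hold them, in that order. In the member windows GTCTAGAC and ATTTGCAT did not occur. CAGAC occurred in windows of S100a3, S100a4, S100a6 and S100a16, TGANTCA in S100a11 and S100a16, CACGTG in S100a6 and S100a11, and TATAAA in S100a3 and S100a4. A match describes the letters only. The windows of S100a4 and S100a1, the members lower with Smad3CA on day 10, and of S100a6 and S100a11, which fell together in both series, are shown 5′ to 3′ on the strand of the gene with matches in capitals. They lie at chr3:90603520-90603819 (plus strand), chr3:90514281-90514580 (minus strand), chr3:90612644-90612943 (plus strand) and chr3:93520246-93520545 (plus strand). The window of S100a1 shares 204 bases with that of S100a13 and holds no match.
S100a4: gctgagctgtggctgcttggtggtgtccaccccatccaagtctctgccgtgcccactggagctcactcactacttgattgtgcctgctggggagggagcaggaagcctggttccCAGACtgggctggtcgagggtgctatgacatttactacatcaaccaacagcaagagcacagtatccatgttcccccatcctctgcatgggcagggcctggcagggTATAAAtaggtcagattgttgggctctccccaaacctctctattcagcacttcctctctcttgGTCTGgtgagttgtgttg
S100a1: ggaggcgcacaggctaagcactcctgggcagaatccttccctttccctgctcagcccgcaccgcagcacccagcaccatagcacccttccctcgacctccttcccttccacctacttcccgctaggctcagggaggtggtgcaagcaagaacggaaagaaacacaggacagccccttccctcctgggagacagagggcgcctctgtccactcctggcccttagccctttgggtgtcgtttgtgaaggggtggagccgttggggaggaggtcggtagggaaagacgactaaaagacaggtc
S100a6: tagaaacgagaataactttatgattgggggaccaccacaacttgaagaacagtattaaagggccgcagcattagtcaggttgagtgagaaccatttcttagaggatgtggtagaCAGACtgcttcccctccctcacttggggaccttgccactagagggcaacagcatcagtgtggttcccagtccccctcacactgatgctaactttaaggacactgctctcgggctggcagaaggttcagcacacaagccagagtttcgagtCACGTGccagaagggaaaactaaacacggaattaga
S100a11: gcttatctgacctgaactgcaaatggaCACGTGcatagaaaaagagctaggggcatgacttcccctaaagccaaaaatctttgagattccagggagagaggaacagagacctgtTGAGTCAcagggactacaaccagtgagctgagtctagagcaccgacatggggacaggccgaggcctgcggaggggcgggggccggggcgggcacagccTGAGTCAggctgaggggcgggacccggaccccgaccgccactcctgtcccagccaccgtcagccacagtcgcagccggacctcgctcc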

How the data were processed

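Per the submitters' processing notes, reads were aligned to mm10 with Bowtie 0.12.9 and analysed with DESeq2 1.6.3. The authors deposited a table of raw read counts for 18909 genes in 84 wells, without molecular identifiers. The wells of each biological replicate were summed, which gave 30 libraries in 10 groups, and no well was left out.

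Counts were tested in R 4.3.3 with edgeR 4.0.16 (TMM normalisation, filterByExpr, quasi-likelihood F test, Benjamini-Hochberg adjustment over all genes tested, threshold 0.05). The 24 reprogramming libraries were fitted together for +Sm3CA against Cont, MEFs and ESCs were fitted alone, and all 30 libraries were fitted for the other comparisons. Levels are counts divided by size factors from DESeq2 over all 30 libraries, and TMM-normalised values were the alternative setting for levels. A prior count enters fitted fold changes. Single genes at 3 reads or fewer in a group are therefore given by a floor of 3 reads, by a ratio with an exact 95% Clopper-Pearson counting interval, or without a fold. Where a fitted value of such a gene is printed, it stands beside its ratio. Medians of the marker, partner and neighbour lists use fitted values, also of genes at or under 3 reads. Python 3.11.15 with pandas 2.3.3 and scipy 1.17.1 was used for summaries, correlations on log2(CPM + 1) and figures.

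Each result was recomputed with edgeR given size factors from DESeq2, with the Wald test of DESeq2 1.42.0, with no filter on low counts, with the replicate number as a block, with another set of libraries in the fit, and with each library left out in turn. The design text pairs replicates over days within each series and states no pairing between Cont and +Sm3CA. Residuals of replicates with the same number had mean correlations of -0.081 to 0.054 between groups over 10979 genes, so no block was used in the main model and blocked values were computed beside it. Of the 30 pairs of replicates within groups, 0 were identical. The fitting steps were tested on simulated data.

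All 9 members are named in every comparison, those that did not pass by their values or range. Whether libraries of the groups compared overlapped is a description of single genes, for which no share of all genes was computed. Of the binding partners and the chromosome 3 neighbours (within 200 kb), up to 4 called genes with the smallest p are named for ESCs against MEFs and for day 10, and Anxa2 and Ahnak always; other partners, neighbours and single markers were named after their values were seen. The lists hold 18 partners and receptors, 15 neighbours, 6 other S100 genes, and markers of fibroblasts, pluripotent cells, epithelia, keratinocytes, macrophages and glia. The members and lists were chosen with earlier results of these data known. All 9 symbols were matched to the GRCm38 annotation.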

Additional observations from a re-analysis of the deposited data

Results flagged for a closer look

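The difference of S100a4 between +Sm3CA and Cont was lower on day 10 than on day 3, with a call that was lost in 10 of 17 alternatives. The interaction of day 10 against day 3 was -1.74 on the log2 scale, and this difference was itself tested, with an adjusted p of 0.0425 in edgeR and a range of 7.44e-08 to 0.199. The call was lost in the DESeq2 Wald test (adjusted p 0.167) and without each of 9 libraries, left out in turn.

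S100a1 lay on different sides of Cont on successive days. In +Sm3CA against Cont its log2 fold change was -0.38 on day 6, 0.41 on day 8 and -0.72 on day 10. All 3 +Sm3CA libraries were below all 3 Cont libraries on days 6 and 10 and above them on day 8. Only day 10 passed the test, and the difference between these days was not tested. Groups of 3 libraries are too small for a test of single libraries that stand apart.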

How the results depend on the processing

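Under the settings other than leaving out a library, 67 of 75 counts of S100A members called stayed within 1.5 times the value reported, and the 90 levels moved by less than 1 SD. Of 398 fold changes of single members under these settings, 375 kept their direction and their side of the threshold, 6 lost a call, 13 gained one and 4 reversed. With the DESeq2 Wald test the count was 0 on day 8 and 0 for the interaction, and 3 for +Sm3CA day 8 against day 6. Without the filter on low counts it was also 3 in that last comparison. Fitting only the libraries compared gave 3 for Cont day 10 against day 8, 2 for +Sm3CA day 8 against day 6 and 2 for +Sm3CA day 10 against day 8. With all 30 libraries in the fit 8 members were called between ESCs and MEFs, where 9 and not 6 pass the filter and S100a13, tested in both fits, gained a call. The cause was not tested.

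Fold changes near 0 reversed. S100a16 on day 6 was -0.008012 without the filter. S100a13 in ESCs against +Sm3CA day 10, 0.01 as reported, was -0.01598 without the filter, -0.01385 with the replicate block and -0.003586 with only the libraries compared. The replicate block shared by Cont and +Sm3CA, which the design text does not state, left all member counts of these comparisons as they were. With DESeq2's size factors in place of TMM, 1 member changed sign on day 3 and 0 did so on days 6, 8 and 10.

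Leaving out 1 library at a time kept 68 of 96 counts within 1.5 times, and kept direction and side of the threshold for 444 of 504 fold changes of single members, while 43 calls were lost, 6 were gained and 11 values reversed. The counts ranged from 0 to 3 on day 8, from 1 to 2 on day 10, from 0 to 2 for the interaction, from 1 to 3 for Cont day 6 against day 3, from 0 to 1 for Cont day 10 against day 8 and from 0 to 1 for +Sm3CA day 8 against day 6. On day 3, S100a1 ranged from -0.0864 to 0.1745 and S100a4 from -0.1427 to 0.4431, and on day 6 S100a16 ranged from -0.07833 to 0.1234. S100a13 ranged from -0.7741 to 0.05943 in ESCs against Cont day 10 and from -0.5037 to 0.3298 against +Sm3CA day 10. The cause was not tested. With 3 libraries per group, an exact permutation test of 1 gene cannot give a p under 0.1, so calls rest on the spread that edgeR pools over genes.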
